A study of Mus musculus with 172 samples.

Results

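The 10 enzymes and regulators of hepatic glucose production and amino acid breakdown described here were chosen by name: Pck1, G6pc, Fbp1, Pcx, Ppargc1a, Tat, Sds, Pdk4, Tdo2 and Got1. All 10 were among the 14107 genes listed in liver, the tissue in which their levels, their change per line and their spread over lines were measured. Cortex served as the contrast, and there 4 of the 10 (Pcx, Ppargc1a, Pdk4 and Got1) were among the 14896 genes listed, while the other 6 were not.

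RNA sequencing of liver and cerebral cortex was carried out in 33 BXD/RwwJ lines, which are inbred mouse lines descended from crosses of C57BL/6J (B6) and DBA/2J (D2), together with the parental strains and their 2 reciprocal F1 crosses (BD-F1 and DB-F1). Male mice aged 11 to 14 weeks were either kept awake for 6 h from light onset by gentle handling in their home cage (sleep deprivation, SD) or left undisturbed in a different room (control, Ctr), and all were killed at the same time of day, 6 h after light onset. RNA of the mice of a line and condition was combined into 1 pool, as a rule from 3 mice and from fewer in BXD79, BXD85 and BXD101, so each tissue had 39 pools per condition. Each parental strain gave 2 pools per condition, 1 from the start and 1 from the end of the breeding period. The series also holds 4 lines of the older BXD/TyJ panel (BXD05, BXD29, BXD29t and BXD32), labelled control and sleep deprived like the rest, whose age and number of mice per pool are not given in the sources used here and which were kept out of the comparisons. A BXD line had 1 pool per condition, hence a change measured in 1 line has no replicate of its own.

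Gluconeogenesis rebuilds glucose from lactate, glycerol and the carbon skeletons of amino acids, chiefly in hepatocytes, and is under the opposing control of glucagon and glucocorticoids on one side and insulin on the other. Pcx carboxylates pyruvate to oxaloacetate in mitochondria, Pck1 turns oxaloacetate into phosphoenolpyruvate, Fbp1 removes a phosphate from fructose 1,6-bisphosphate and G6pc releases free glucose. Ppargc1a is a coactivator of this program, Pdk4 inhibits pyruvate dehydrogenase and so spares pyruvate from oxidation, and Tat, Sds, Tdo2 and Got1 open the breakdown of tyrosine, serine, tryptophan and aspartate.

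Liver libraries held between 4681101 and 8269401 reads on listed genes, and cortex libraries between 18995492 and 28998853. Of 10 hepatocyte markers 9 were listed in liver, and 5 of 7 cortical neuron markers were not listed there, whereas all 7 were listed in cortex. The liver library least like the others was BXD70 after SD, with a median correlation of 0.942 against 0.966 over all liver libraries, and results that rest on it are given without it as well.

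The promoters of Pck1, Ppargc1a and Pdk4 are shown because these members had the largest absolute changes in liver, and because only the first 2 hold the short element searched for. The letters come from RefSeq and are placed here in mm9, the build of the deposited values. Bases are shown up to the start of the gene in both RefSeq and the mm9 annotation, 5′ to 3′ on the strand of the gene. Capitals mark CGTCA, the reverse complement of TGACG, which is the core of the cAMP response element. Pck1 is on the plus strand at chr2:172978324-172978548, Ppargc1a on the minus strand at chr5:51958965-51959214 and Pdk4 on the minus strand at chr6:5446310-5446528.
Pck1: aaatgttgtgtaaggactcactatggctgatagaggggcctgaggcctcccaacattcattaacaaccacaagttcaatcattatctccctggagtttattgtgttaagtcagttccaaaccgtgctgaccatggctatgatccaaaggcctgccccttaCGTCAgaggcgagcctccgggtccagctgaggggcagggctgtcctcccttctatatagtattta
Ppargc1a: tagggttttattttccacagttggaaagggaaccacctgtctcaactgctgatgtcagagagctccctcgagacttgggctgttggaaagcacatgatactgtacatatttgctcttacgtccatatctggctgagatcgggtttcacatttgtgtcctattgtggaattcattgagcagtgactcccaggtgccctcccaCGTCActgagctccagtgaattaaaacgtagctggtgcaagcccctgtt
Pdk4: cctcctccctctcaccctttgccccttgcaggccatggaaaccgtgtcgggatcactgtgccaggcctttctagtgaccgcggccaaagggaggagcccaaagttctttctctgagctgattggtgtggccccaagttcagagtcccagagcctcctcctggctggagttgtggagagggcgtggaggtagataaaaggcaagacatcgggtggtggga

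Within the 250 bases before the RefSeq start, TGACG in either orientation was present in 2 of the 9 members that have a promoter in the table. It lay 86 to 90 bases before the start of Pck1 and 45 to 49 bases before that of Ppargc1a. The same letters occurred in 17.8% of 32851 promoters of that length. TGTTTAC, a motif of FOXO factors, and TGTTCT, a core element of the glucocorticoid receptor, were found on neither strand in these windows of the 9 members, against 3.17% and 16.1% of all promoters. No promoter of Sds was among them.

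In liver the reads of the members did not rise in proportion to the size of the library. Fbp1 had between 1506 and 1787 reads in all 78 liver libraries, although the library totals spanned the range above, and Tdo2 had between 2232 and 2550. The slope of log2 reads on log2 library total, which is 1 where reads scale with depth, was 0.21 for Fbp1, 0.15 for Tdo2, 0.19 for Pck1, 0.23 for Tat, 0.34 for G6pc, 0.45 for Sds, 0.58 for Pcx and 0.68 for Got1. These 8, all with slopes under 1, are the members with at least 0.6 reads per exonic base on average. Ppargc1a and Pdk4, at 0.046 reads per exonic base each, had slopes above 1, of 1.85 and 1.59. Over the 33 lines the change of Ppargc1a went with the change in library total at r = 0.42 (rho = 0.30, adjusted p = 0.0183 and 0.108, by permutation, and r = 0.19 without the 2 farthest lines), and that of Pdk4 at r = 0.26 (rho = 0.22, adjusted p = 0.151 and 0.225, and r = 0.12 without the 2 farthest). The pattern held for liver genes in general: among genes with at least 100 reads the median slope fell from 1.71 below 0.1 reads per exonic base to 0.20 above 1, and the median absolute log2 change after SD fell from 0.14 to 0.027. In cortex the median slope was 0.96 in the lowest and 0.99 in the highest class, and Got1 had a slope of 1.07 there at 3.92 reads per exonic base. What levels the reads of dense genes in liver was not tested. The log2 CPM of these 8 members therefore moves with the library total, at r = -0.97 for Fbp1, -0.98 for Tdo2, -0.88 for Pck1 and -0.41 for Got1 over the 78 libraries, each taken from its condition mean, and fits with the library total as a covariate are given beside the results they change.

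**Figure D1:**
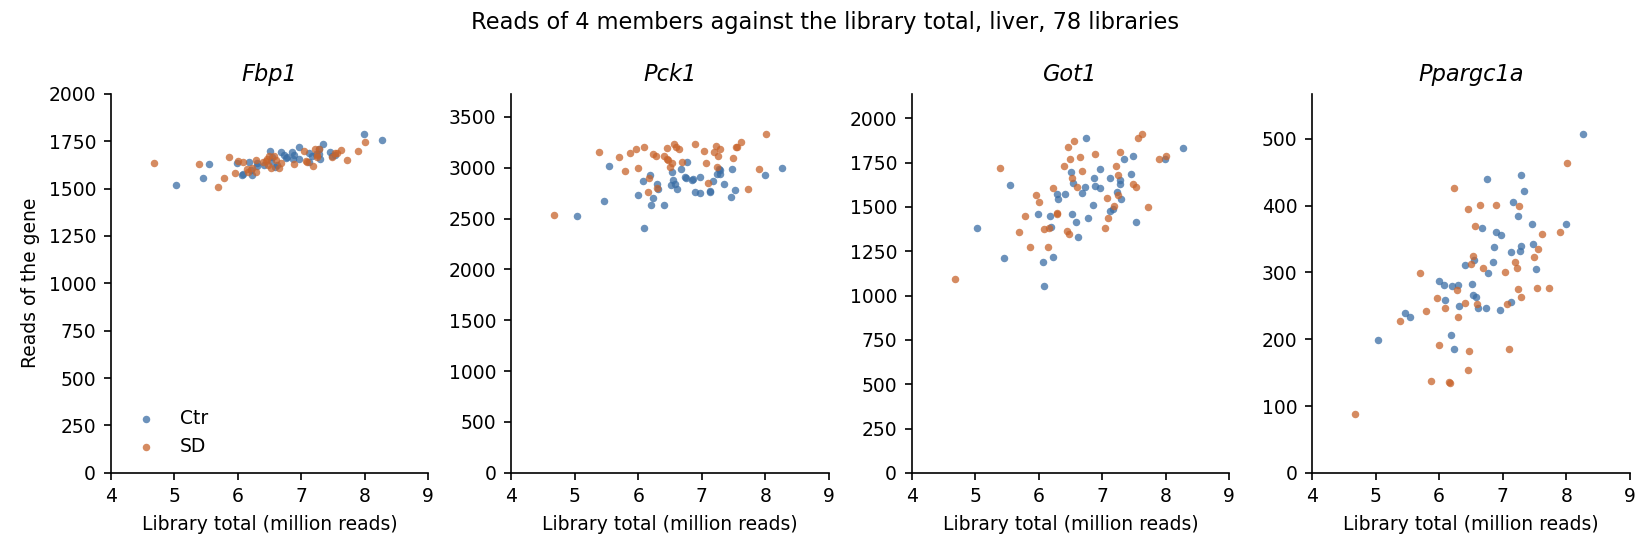
Reads of Fbp1, Pck1, Got1 and Ppargc1a (y axis, from 0) against the library total (x axis) in the 78 liver libraries, Ctr in blue and SD in orange. Fbp1 stayed between 1506 and 1787 reads, while Ppargc1a ranged from 88 to 507 and was higher in larger libraries.

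Levels per kilobase of exon are given as the deposited values have them. The 8 dense members, whose reads rose less than in proportion to depth, stand in the order of those values. Tat (172 ± 19.4 CPM per kilobase, standard deviation, n = 39 pools), Fbp1 (167 ± 16.5) and Pck1 (159 ± 17.6) were highest, with neighbours closer in level than the spread between pools. Sds (148 ± 15.8), Pcx (132 ± 9.78), Tdo2 (123 ± 13.3), Got1 (111 ± 12.9) and G6pc (92.5 ± 12.1) followed. Pdk4 (9.03 ± 3.76) and Ppargc1a (7.12 ± 1.19) were far below, and the spread of Pdk4 covers the level of Ppargc1a. Between Pcx, Tdo2 and Got1 neighbours also differed by no more than their spread.

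The main question was whether 6 h of sleep deprivation changed these genes in liver. Pdk4 fell by 48.2% and Pck1 rose 1.10-fold, and these were the 2 of 10 members called by limma, with p adjusted across the liver genes and a threshold of 0.05. Of all genes listed in liver 44.2% were called (21.5% higher and 22.6% lower after SD), and of the members 2 of 10 were. Among the 905 liver genes with at least 100 reads and 0.6 reads per exonic base, 17.5% were called, as was 1 of the 8 members of that density, and among those under 0.2 reads per exonic base 54.8% were, as was Pdk4 but not Ppargc1a. With the line as a replicate block, which pairs the Ctr and SD pools of a line, 6 of 10 members were called (Ppargc1a, Tat, Sds and Got1 in addition), against 53.9% of all genes. The median log2 change was 0.017 over the 10 members and -0.0015 over all liver genes.

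**Figure D2:**
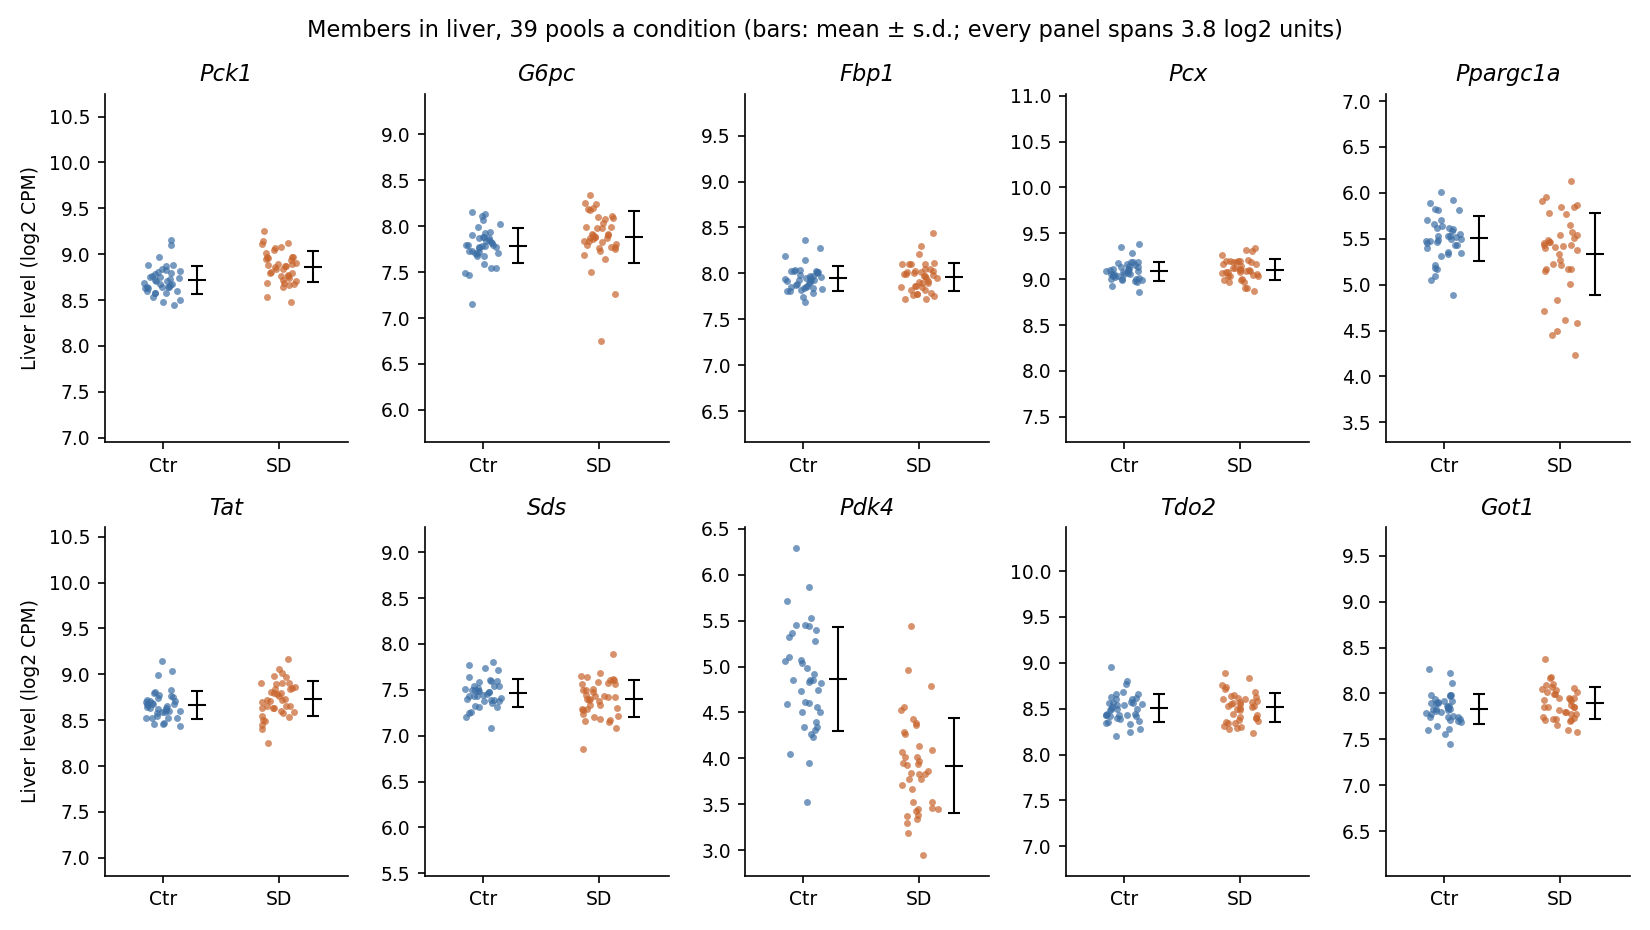
Liver level in log2 CPM (y axis; each panel spans the same number of log2 units) of the 10 members in the 39 Ctr pools (blue) and 39 SD pools (orange), with mean and standard deviation. Pdk4 lies lower after SD with overlap, Pck1 slightly higher, and Ppargc1a spreads downward in part of the SD pools.

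Pck1, the cytosolic phosphoenolpyruvate carboxykinase (chr2:172978549-172984774, mm9), ranged in Ctr from 8.45 log2 CPM in BXD73b over a median of 8.70 to 9.16 in BXD50. After SD it ranged from 8.48 in BXD101 over 8.87 to 9.25 in BXD50. The groups overlapped almost wholly, 1 SD pool lying above every Ctr pool, yet within lines the SD pool was the higher in 32 of 39. The mean change was 0.14 log2 units (SE 0.036, adjusted p = 0.000602), or 1.10-fold (95% confidence interval 1.05 to 1.16). The change per pool reached from -0.16 in BXD48a to 0.47 in the second D2 pool. Because Pck1 has 1.11 reads per exonic base in liver, its change was also fitted with the library total as covariate, where it remained called. Over the 33 BXD/RwwJ lines the change of Pck1 went with the change in library total at r = -0.79 (rho = -0.79). The adjusted p was 3.33e-05 for each by permutation, and r was -0.80 without the 2 farthest lines.

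G6pc, the glucose-6-phosphatase catalytic subunit (chr11:101228875-101239217), ranged from 7.15 log2 CPM in BXD100 over 7.79 to 8.16 in BXD50 in Ctr and from 6.75 in BXD101 over 7.88 to 8.35 in BXD50 after SD. Above every Ctr pool lay 6 SD pools, and BXD101 lay below. Its mean change of 0.095 (SE 0.054, adjusted p = 0.149, higher in 25 of 39 pools) did not pass, and the interval of the change was -0.012 to 0.20. The call turned on the pool of BXD101 (change -0.80), without which the change was 0.12 (adjusted p = 0.0287), and on the fit, since voom on recovered reads paired by line gave 0.097 (adjusted p = 0.0437) with BXD101 included. BXD101 is a line with fewer mice per pool.

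Fbp1 (chr13:62966113-62989642) and Pcx (chr19:4510472-4621752) gave no detectable change. Fbp1 ranged from 7.68 over 7.93 to 8.36 in Ctr and from 7.72 over 7.97 to 8.44 after SD, with a change of 0.016 (interval -0.050 to 0.081, adjusted p = 0.739, higher in 20 of 39). Pcx ranged from 8.87 over 9.08 to 9.38 in Ctr and from 8.87 over 9.10 to 9.34 after SD, with a change of 0.018 (interval -0.032 to 0.067, adjusted p = 0.604, higher in 22 of 39). Their slopes of reads on library total were 0.21 for Fbp1 and 0.58 for Pcx.

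Pdk4, pyruvate dehydrogenase kinase 4 (chr6:5433351-5446309), was the member that moved most. In Ctr it ranged from 3.52 log2 CPM in BXD89 over 4.85 to 6.29 in BXD44, and after SD from 2.95 in BXD85 over 3.86 to 5.44 in BXD44. Ctr and SD overlapped, but 11 of 39 SD pools lay below every Ctr pool and 37 of 39 fell within their line. The mean was 4.87 ± 0.56 in Ctr and 3.92 ± 0.52 after SD (standard deviation, n = 39), a change of -0.95 (SE 0.12, adjusted p = 2.08e-10), or 0.518-fold (interval 0.439 to 0.611). The fall reached -2.44 in BXD85, a line with fewer mice per pool. BXD50 and BXD89 were the 2 pools in which the SD value was higher, by 0.42 in BXD89. BXD89 also had the lowest Ctr level. Pdk4 is the low-density member whose reads ran from 51 to 543 per library, and the counting error of its log2 level was 0.11. The standard deviation between the pools of a parental strain was 0.38, against 0.56 between all Ctr pools.

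Ppargc1a, the coactivator PGC-1alpha (chr5:51845488-51958964), was lower after SD on average without passing the test. It ranged from 4.89 in BXD49 over 5.50 to 6.01 in BXD71 in Ctr and from 4.23 in BXD70 over 5.42 to 6.13 in BXD90 after SD. Below every Ctr pool lay 7 SD pools, and 1 lay above. The change was -0.17 (SE 0.080, adjusted p = 0.0710, lower in 23 of 39), paired by line it had an adjusted p of 0.0263, and over the 33 BXD/RwwJ lines alone the change was -0.24 (adjusted p = 0.0278). The pools differed widely: the change ran from -1.21 in BXD48 to 0.45 in the second B6 pool. Without the pools of BXD90 the change was -0.19 (adjusted p = 0.0483), and without the second B6 pools it was also -0.19 (adjusted p = 0.0498).

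**Figure D3:**
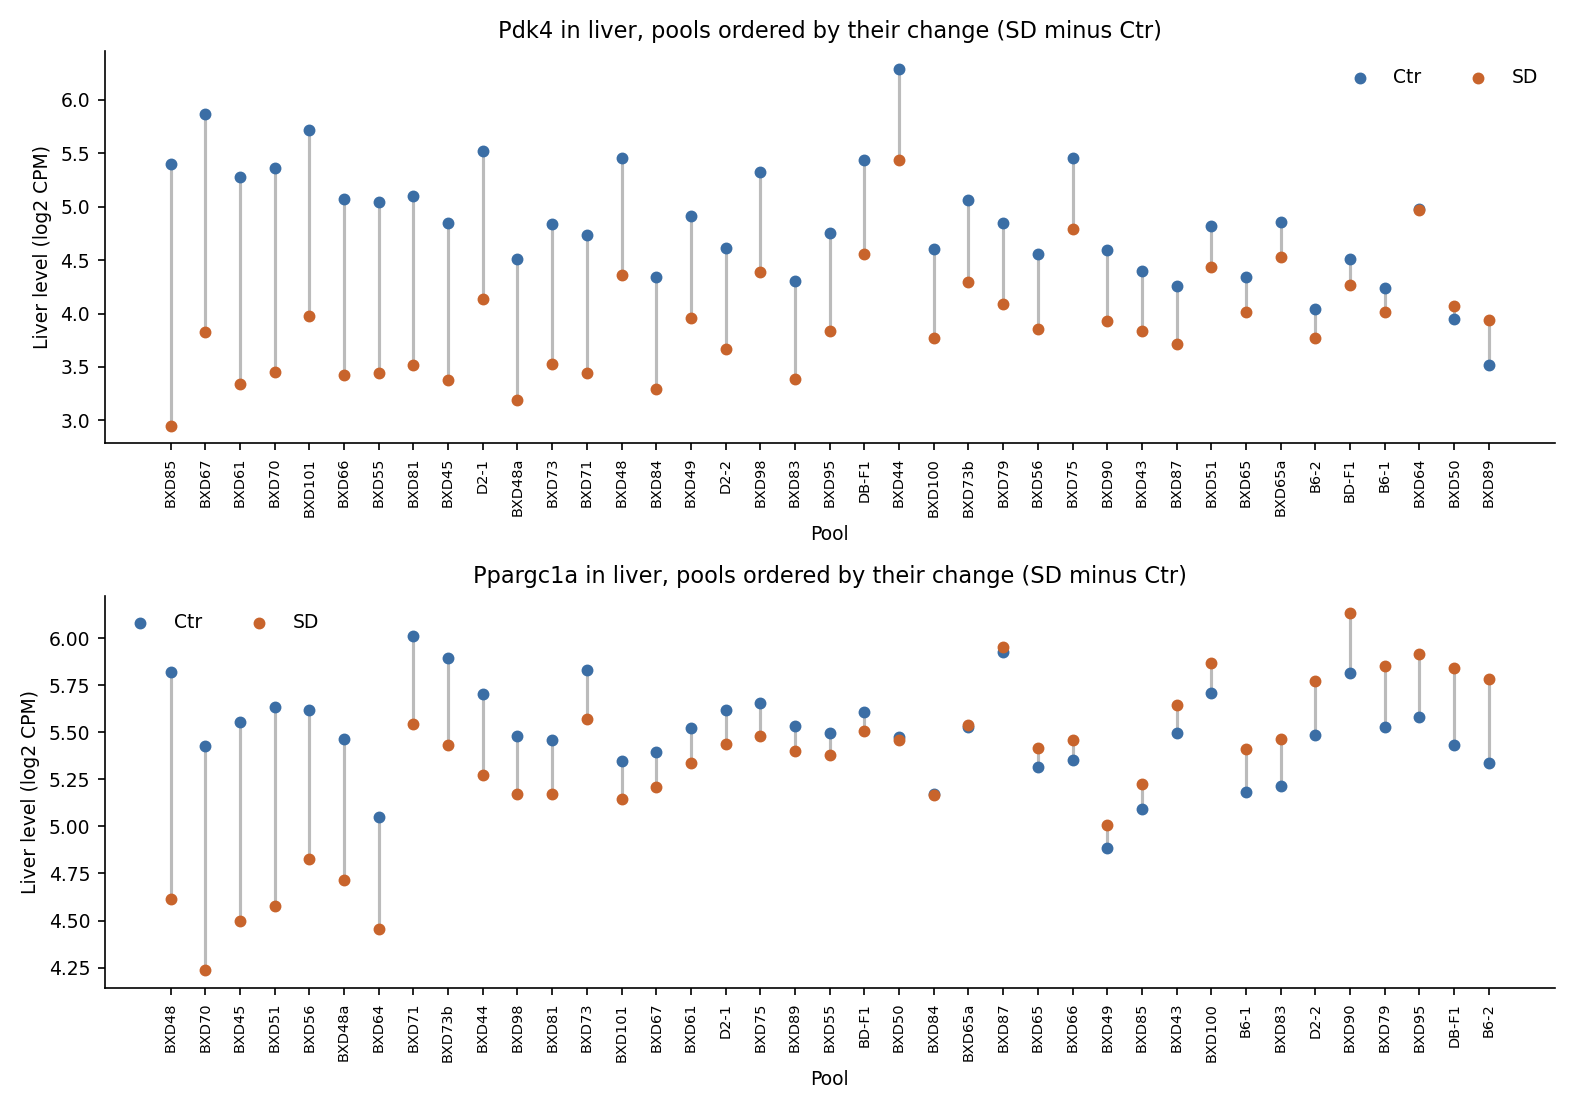
Liver level in log2 CPM (y axis) of Pdk4 (top) and Ppargc1a (bottom) in Ctr (blue) and SD (orange) for each of the 39 pools, joined by a line and ordered along the x axis by the change. Pdk4 fell in 37 pools, from -2.44 in BXD85, a line with fewer mice per pool, and rose in BXD50 and BXD89. Ppargc1a was lower in 23 pools and higher in 16.

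Tat (chr8:112514337-112523703), tyrosine aminotransferase, is a textbook glucocorticoid target. It ranged from 8.44 in BXD101 over 8.65 to 9.15 in DB-F1 in Ctr and from 8.25 in BXD101 over 8.72 to 9.16 in BXD50 after SD, 1 SD pool lying above and 2 below all Ctr pools. The change of 0.063 (SE 0.039, adjusted p = 0.190, higher in 26 of 39) passed when pools were paired by line (adjusted p = 0.0414). The gain in precision, not a larger value, brought the call, since the block leaves the change as it is.

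Got1 (chr19:43574242-43599095), the cytosolic aspartate aminotransferase, had a change of like size. It ranged from 7.45 in BXD70 over 7.83 to 8.26 in BXD50 in Ctr and from 7.58 in BXD101 over 7.88 to 8.38 in BXD50 after SD. The change was 0.064 (SE 0.038, adjusted p = 0.169, higher in 24 of 39, with the block 0.0358). Sds, serine dehydratase (chr5:120926540-120933941), went the other way: from 7.09 over 7.48 to 7.80 in Ctr against 6.86 over 7.42 to 7.89 after SD. Its change was -0.064 (SE 0.040, adjusted p = 0.195, lower in 29 of 39), and with the block the adjusted p was 0.0460.

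Tdo2 (chr3:81761012-81780124), tryptophan 2,3-dioxygenase, which opens the kynurenine pathway, showed a change of 0.011 (interval -0.058 to 0.080, adjusted p = 0.829, higher in 22 of 39). It ranged from 8.21 over 8.50 to 8.95 in Ctr and from 8.24 over 8.53 to 8.89 after SD. With the library total as covariate the change was -0.0050 and its SE fell from 0.035 to 0.0081, so that nearly all of the spread of Tdo2 between pools moved with library size.

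The other genes of these pathways are given by count. Of 16 listed further gluconeogenic enzymes and carriers, 1 rose and 4 fell, against 21.5% and 22.6% of all liver genes. Of the 8 with at least 0.6 reads per exonic base 2 were called, against 17.5% of all such liver genes. Slc25a12, an aspartate-glutamate carrier of mitochondria, fell by 0.43 (SE 0.032, adjusted p = 2.75e-20) in all 39 pools, while the glucose-6-phosphate transporter Slc37a4, which feeds G6pc, rose by 0.17 (SE 0.033). The other 3 that fell were G6pc3, the ubiquitous glucose-6-phosphatase, and the mitochondrial carriers Slc25a10 and Slc25a11, at -0.22, -0.18 and -0.13. Among 8 listed genes of glycerol and lactate entry 2 rose and 1 fell, with the triglyceride lipase Pnpla2 at 0.19. Of the 3 with at least 0.6 reads per exonic base 1 was called.

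Of 17 listed enzymes of glucose use and storage, 6 rose and 2 fell, against 21.5% and 22.6% of liver genes, and 8 in all against 44.2%. Of the 7 with at least 0.6 reads per exonic base 3 were called, against 17.5% of all such liver genes, and of the other 10, 5 were. Pfkfb3 and Pfkfb1, bifunctional enzymes that set fructose 2,6-bisphosphate, rose by 1.42 (SE 0.12) and 0.62 (SE 0.057), each in 39 of 39 pools. The other pyruvate dehydrogenase kinases showed no fall of the size seen in Pdk4: Pdk1 changed by -0.11, Pdk2 by 0.092 (both called) and Pdk3, a low gene, by -0.14 without a call. These relatives of Pdk4 were chosen for comparison after their values were seen.

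Regulators of gluconeogenesis were called in 14 of 28, against 44.2% of all liver genes. Of the 28, 11 rose and 3 fell, against 21.5% and 22.6% of all liver genes. Of the 4 with at least 0.6 reads per exonic base 1 was called, against 17.5% of all such liver genes, and of the other 24, 13 were. Igfbp1, an insulin-repressed hepatic gene, rose by 0.69 (SE 0.15) in 29 of 39 pools, and Esrrg, an orphan nuclear receptor, fell by 1.32 on the log2 scale (SE 0.14) in 37 of 39. Genes induced by glucocorticoids in many tissues were listed in full as a reference, and 8 of 9 rose and none fell. The list was chosen with earlier results of these data known. The study itself places Zbtb16, Fam107a, Fkbp5 and Mt2 among its most changed liver genes, so the count is not independent of these data. Zbtb16 rose by 2.08, Fam107a by 2.06, Mt2 by 1.40, Fkbp5 by 1.30, Per1 by 0.85, Mt1 by 0.81 and Tsc22d3 by 0.60. Errfi1, at 0.77 reads per exonic base, rose by 0.17, whereas Sgk1 stood at 0.0045 without a call. Tat and Pck1, glucocorticoid-inducible by background knowledge, thus showed changes of 0.063 and 0.14 in the same libraries, at 1.17 and 1.11 reads per exonic base. Of the reference genes, 8 of 9 lie below 0.6 reads per exonic base, where the median absolute change over all genes was larger as well.

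Beyond the members, 4 lists cover amino acid breakdown. For these and the urea cycle the shares over all liver genes were 21.5% called higher and 22.6% called lower after SD, 44.2% in all. None of 13 listed genes of transamination and serine-glycine metabolism rose and 2 fell, led by Shmt1 at -0.10. Of 9 listed in the kynurenine pathway 2 rose and 1 fell: Ccbl1, a kynurenine aminotransferase, fell by 0.40 (SE 0.030) in all 39 pools, and Acmsd, which draws the pathway away from NAD synthesis, rose by 0.41 (SE 0.074) in 34 of 39. Acmsd was named after its value was seen. Of 11 listed in tyrosine, phenylalanine and histidine breakdown none rose and 3 fell, with the histidine ammonia-lyase Hal at -0.19 in all 39 pools. Among 19 listed branched-chain and other genes 1 rose and 3 fell, the branched-chain ketoacid dehydrogenase kinase Bckdk at -0.30. Of the members of these lists with at least 0.6 reads per exonic base 1 of 8, 2 of 6, 2 of 10 and 2 of 14 were called, in the order given, against 17.5% of all such liver genes. None of 7 urea cycle genes was called, 6 of them of that density, the smallest adjusted p being that of Asl at 0.0866.

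Markers of other cells moved with SD in part. None of 9 hepatocyte and none of 8 Kupffer cell markers was called, against 44.2% of all liver genes. Of the hepatocyte markers 8 have at least 0.6 reads per exonic base, a class in which 17.5% of genes with at least 100 reads were called. None of the Kupffer cell, B cell and endothelial markers reached that density. All 6 listed B cell markers (Ighm was not listed) fell, their summed level running from 7.89 to 30.5 CPM in Ctr and from 3.43 to 15.1 CPM after SD. Among them Faim3 changed by -1.90 and Cd79a by -1.82. Of 6 endothelial markers 4 rose and 1 fell, the sum running from 265 to 662 CPM in Ctr and from 325 to 770 CPM after SD, with Lyve1 at 0.84. Of 6 stellate cell and 6 cholangiocyte markers 1 each fell, as did 2 of 7 periportal and 1 of 8 pericentral genes of the hepatocyte (Lgr5 at -0.55), and Syt1, 1 of the 2 listed neuron markers, at -0.82. In bulk liver, fewer cells of a type and less RNA per cell cannot be told apart, and the part of these shifts in the changes of the members was not tested.

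In cortex, 2 of the 4 listed members were called, against 68.4% of all genes there (33.0% higher and 35.4% lower). The share called was 69.8% of genes with at least 0.6 reads per exonic base, the class of Got1, and 70.0% of those under 0.2, the class of Pdk4. All 4 were called with the line as a replicate block, against 76.3%. Pcx, which in brain serves astrocytic anaplerosis, ranged from 6.12 over 6.42 to 6.61 log2 CPM in Ctr and from 6.04 over 6.28 to 6.51 after SD. It fell by 0.14 on the log2 scale (SE 0.022, adjusted p = 2.07e-08) in 37 of 39 pools. Pdk4 ranged from 3.19 over 3.74 to 3.97 in Ctr and from 3.42 over 3.89 to 4.73 after SD, with 15 of 39 SD pools above every Ctr pool, and rose by 0.18 (SE 0.049, adjusted p = 0.00108) in 29 of 39. Ppargc1a changed by 0.067 (adjusted p = 0.0790, with the block 0.00149), higher in 27 of 39, and Got1 by 0.028 (adjusted p = 0.101, with the block 0.00854), higher in 27 of 39.

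The difference between the tissues was tested per pool, by subtracting the cortex change from the liver change, a test in which 57.6% of the 12695 genes listed in both tissues were called. Pdk4 differed by -1.12 (SE 0.10, adjusted p = 4.97e-13), the liver change being above the cortex change in 2 of 39 pools. Ppargc1a differed by -0.24 (SE 0.068, adjusted p = 0.00241), with the liver change above in 15 of 39, and Pcx by 0.16 (SE 0.023, adjusted p = 7.64e-08), with the liver change above in 34 of 39. For Got1 the difference of 0.036 (interval -0.019 to 0.090) was not called, but it was 0.065 (adjusted p = 0.0280) after quantile normalization and 0.064 (adjusted p = 0.0476) with the BXD/TyJ lines entered. For Pcx the slope on library total was 0.58 in liver and 0.91 in cortex, and the part of this in the difference was not tested.

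**Figure D4:**
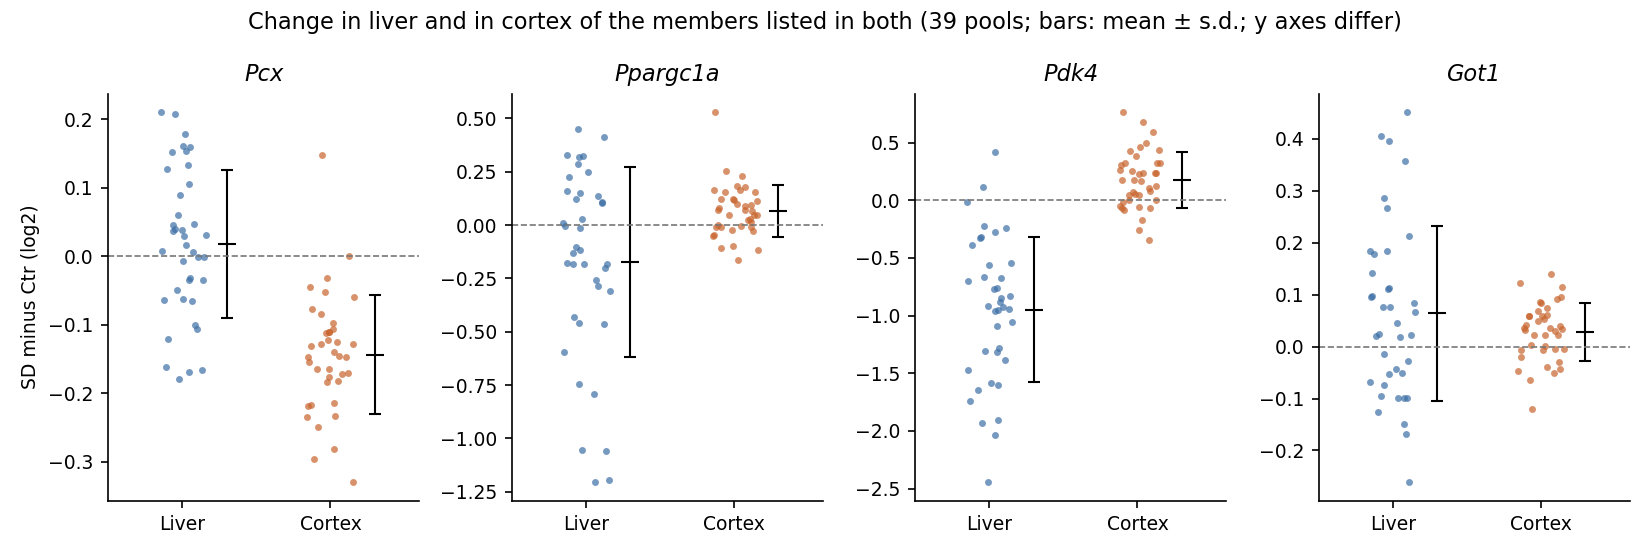
Change after SD (y axis, SD minus Ctr in log2 units) in liver (blue) and cortex (orange) of the 4 members listed in both tissues, 1 point for each of 39 pools, with mean and standard deviation and a dashed line at 0. The Pdk4 changes average -0.95 in liver and 0.18 in cortex, those of Pcx 0.018 and -0.14.

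Lines differed most in Pdk4 and Ppargc1a, the members of low read density in liver. Sparse liver genes spread more in general. Among genes with at least 100 reads the median standard deviation over Ctr pools was 0.22 below 0.1 reads per exonic base. It was 0.13 at 0.6 or more, and the part of density in the order of the members was not tested. Over the 33 BXD/RwwJ lines the standard deviation of the log2 level of Pdk4 was 0.56 in Ctr and 0.54 after SD, without a called difference in spread (p = 0.870 and adjusted p = 0.870, permutation test of sum against difference with 100000 resamples, two-sided). Ppargc1a spread more after SD, with 0.26 in Ctr and 0.46 after SD (p = 0.00087, adjusted p = 0.00870). Without BXD70, whose SD level of Ppargc1a was the lowest, the adjusted p was 0.0475. The other 8 members had standard deviations between 0.097 and 0.19 in Ctr and between 0.11 and 0.27 after SD, with no called difference. With the library total taken out Tat was called as well, at 0.069 in Ctr and 0.13 after SD (adjusted p = 0.00460). Between the pools of a parental strain the standard deviation was 0.38 for Pdk4, 0.19 for Ppargc1a and 0.21 for G6pc, the last above its spread of 0.19 over Ctr lines, and spread over lines was not tested against spread between repeat pools.

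Whether the level of a line in Ctr carried over to SD was tested by permutation over the 33 lines. BXD48 and BXD48a, BXD65 and BXD65a, and BXD73 and BXD73b share a number and were counted as separate lines, and leaving out BXD48a, BXD65a and BXD73b left the number of members that passed at 7. By r, 7 of 10 members passed, with Pearson's r between 0.45 (Got1) and 0.64 (Tdo2). Got1 did not pass by rho (0.33, adjusted p = 0.0705) and had r = 0.29 without the 2 farthest lines. Ppargc1a passed by rho (0.43, adjusted p = 0.0191) but not by r (0.34, adjusted p = 0.0638). The median r was 0.53 over the members and 0.42 over the 10661 liver genes with at least 50 reads, and 0.35 and 0.33 with the library total taken out. Tdo2 had r = 0.64 (rho = 0.65, adjusted p = 0.000400 for r and 0.000700 for rho, and r = 0.56 without the 2 lines farthest from the median). With the library total taken out, only Got1 passed (r = 0.49, rho = 0.36, adjusted p = 0.0373 and 0.125, and r = 0.31 without the 2 farthest lines), and Tdo2 had r = 0.22. Pdk4 had r = 0.31 (rho = 0.20, adjusted p = 0.0783 and 0.254, and r = 0.14 without the 2 lines farthest from the median). Without BXD79, BXD85 and BXD101 it had r = 0.40 (rho = 0.24, adjusted p = 0.0448 and 0.205, and r = 0.23 without the 2 farthest). Sds lost its call in that setting (r = 0.31, rho = 0.33, adjusted p = 0.102 and 0.107).

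Members were also compared by their change over the 33 lines, 45 pairs in all. At an adjusted p under 0.05, 26 pairs were correlated, each with positive r. With the library total taken out 25 pairs were, but 7 of the 26 lost their call, 6 others gained one and 19 were called in both. The median r was 0.49 over the member pairs and -0.0025 over all pairs of the 10661 liver genes. With the library total taken out these medians were 0.40 and 0.00045. The share of pairs called was not computed over all genes, and pairs matched in read density were not taken as a background. Without BXD48a, BXD65a and BXD73b 24 pairs were called. Sds and Got1 moved together in both (r = 0.82, rho = 0.77, adjusted p = 5.63e-05, r = 0.80 without the 2 farthest lines, and r = 0.76 with the library total taken out), as did Pck1 and Tat (r = 0.80, rho = 0.81, adjusted p = 5.63e-05, r = 0.74 without the 2 farthest lines, and 0.74 with the library total taken out). Pck1 and G6pc had r = 0.56 (rho = 0.49, adjusted p = 0.00143, and r = 0.47 without the 2 farthest lines) and 0.59 with the library total taken out. The closest pair, Fbp1 and Tdo2 (r = 0.91, rho = 0.92), had r = 0.073 (adjusted p = 0.737) once the library total was taken out, and both changes tracked the change in library total between the pools of a line (r = -0.95 for each, rho = -0.95 and -0.96, adjusted p = 3.33e-05 for each, and r = -0.94 and -0.95 without the 2 farthest lines). Ppargc1a and Tat went from r = 0.25 (adjusted p = 0.217) to r = 0.61 (rho = 0.54, adjusted p = 0.000836) under the same step. Ppargc1a and Tdo2 turned from r = -0.19 (adjusted p = 0.349) to r = 0.71 (rho = 0.58, adjusted p = 0.00015, and r = 0.63 without the 2 farthest lines). The change of Pdk4 was not called with any other member in the deposited values, its r lying between -0.28 (Fbp1) and 0.27 (G6pc). With the library total taken out it was called by r with Tat alone (r = 0.38, adjusted p = 0.0497, and r = 0.33 without the 2 farthest lines). By rho the pair with Tat was not called (0.37, adjusted p = 0.0565), and the pair with G6pc was (0.47, adjusted p = 0.0189).

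**Figure D5:**
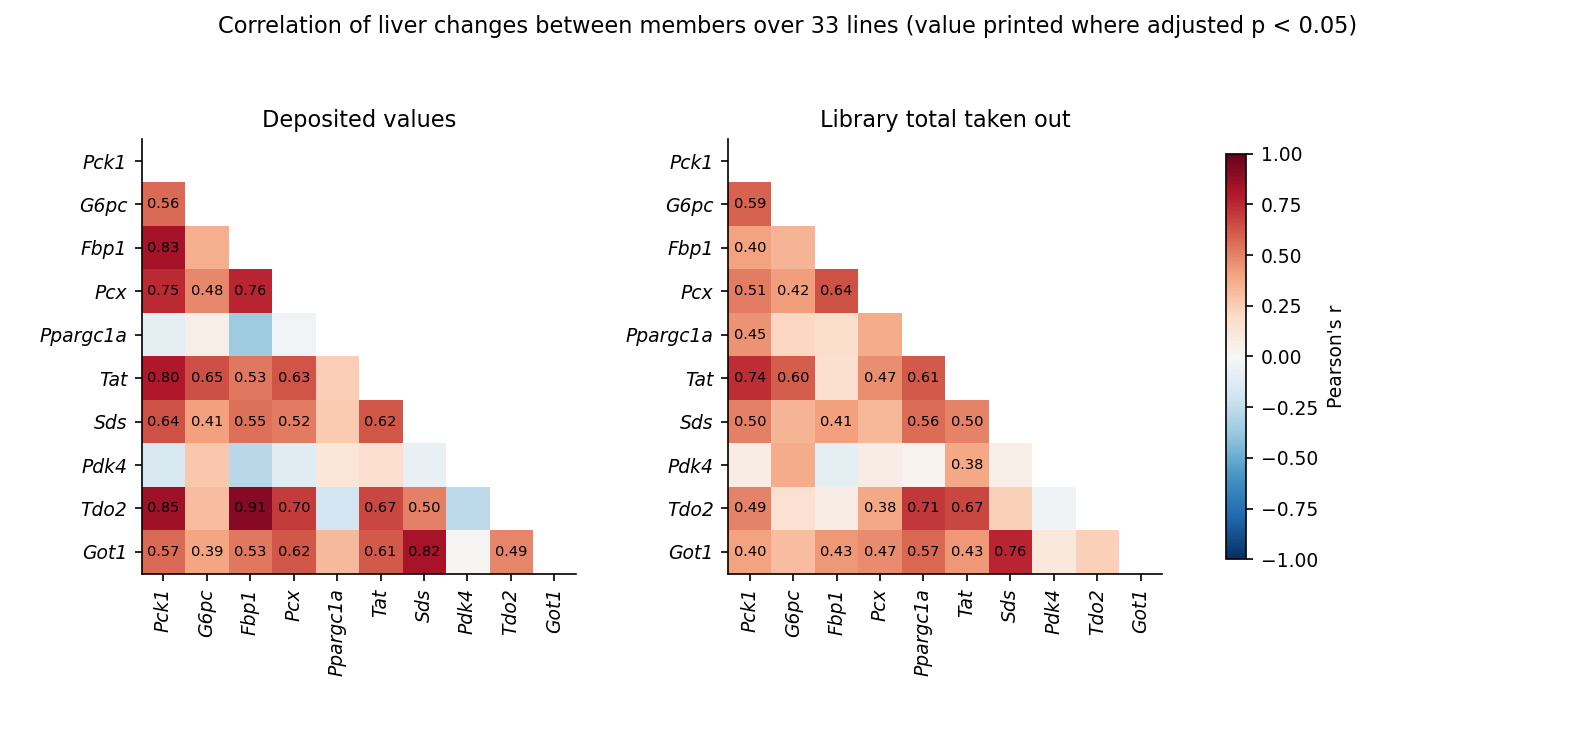
Pearson's r of the liver change (SD minus Ctr) between members over 33 lines, for the deposited values (left) and with the library total taken out (right); red is positive, blue negative, and r is printed where its adjusted p is under 0.05. The Sds and Got1 pair stays high (0.82 and 0.76), and the Fbp1 and Tdo2 pair goes from 0.91 to an unprinted value.

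Among 10651 other genes with at least 50 reads, the change of Pck1 over the 33 lines was most like that of Sdc4 (r = 0.88), that of Ppargc1a like Rhobtb1 (0.77), that of Tat like Serinc3 (0.80), that of Sds like Slc19a1 (0.83) and that of Got1 like Slc29a1 (0.86). For G6pc it was 1810055G02Rik (0.70), for Pcx Col18a1 (0.93), and for Pdk4 Adamts2 at 0.62, the lowest r among these members. Fbp1 was nearest to F2 (0.98), the gene of prothrombin, which hepatocytes secrete. These are descriptions over lines that share library totals, and the part of the totals in them was not tested.

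The mean difference between the parental strains was larger in size after SD than in Ctr in 8 of 10 members, Pdk4 and Ppargc1a being the exceptions. In Ctr the D2 minus B6 difference was -0.023 for Pck1, -0.043 for Tdo2 and 0.016 for Tat, and after SD it was 0.39, 0.38 and 0.47. The SD liver libraries of B6 held 7491781 and 7250062 reads and those of D2 5785013 and 5690812, while the Ctr libraries of the parents held 6547019 to 6848193, and the difference in total cannot be told apart from one between strains here. For Pdk4 the B6 pools stood at 4.24 and 4.05 in Ctr and the D2 pools at 5.52 and 4.62, both D2 pools being higher. After SD the B6 pools stood at 4.01 and 3.77 and the D2 pools at 4.14 and 3.67, and the strains overlapped. With 2 pools a strain an exact permutation test cannot reach a p under 0.05, and no test was made. In Ctr, 28 of the 33 lines had a Pdk4 level within the range of the parental pools, 3 above and 2 below.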

How the data were processed

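RNA sequencing counts of cortex and liver from 172 libraries were deposited by the authors as log2 CPM, 43 pools per tissue and condition. Per the study's methods and the labels, STAR alignments to mm9 were summed over RefSeq genes by HTSeq, the authors removed low genes, and TMM scaling in edgeR gave the deposited log2 CPM. The methods name no removal of duplicate reads. Whole reads were recovered from 100% of values within 0.02 of a read and gave depth, read density and an added voom fit with the effective library sizes of the deposited values. Every value column was matched to a sample. The 4 BXD/TyJ lines were kept apart, leaving 39 pools.

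SD and Ctr were compared with limma 3.58.1 in R 4.3.3 (eBayes with a trend) over all listed genes, with Benjamini-Hochberg adjustment at 0.05. The main fits of SD against Ctr had condition as the only term and no replicate block. Their SEs, intervals and calls are given unless another fit is named. Changes in liver and cortex were compared per pool in the same way. Line tests used permutations with 100000 resamples (numpy 2.4.6), whose smallest p is 1e-05, adjusted over the 10 members or their 45 pairs as one family each. Pools of a line are paired by genotype. After centring by condition the same-line correlation was at least 0.169 in liver (median 0.475) and 0.299 in cortex (median 0.614). The line was therefore the replicate block in the added fits named as such. Intervals are 95% intervals of the limma fit. Fits and permutation tests were tested on simulated data. The members and the gene lists were chosen with earlier results of these data known. Genes named from the pathway lists are those called in liver with an absolute log2 change of at least 0.5, or the one of smallest adjusted p where there was none, and genes named beyond that, cell type markers included, were chosen after their values were seen. Line tests were also run without BXD48a, BXD65a and BXD73b, an alternative chosen after seeing the data. The gene most like each member was the best Pearson correlation of change over lines, and that of Tdo2 is not reported here. P-values measure the spread between pools, and each pool is 1 library. Exonic bases are those of the longest coding transcript in GENCODE vM1.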

Additional observations from a re-analysis of the deposited data

Results flagged for a closer look

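Of the members, 3 were marked because their change after SD differed between liver and cortex by the test on pools described above. Pdk4 differed by -1.12 (liver minus cortex, log2 units), Ppargc1a by -0.24 and Pcx by 0.16. Pdk4 and Ppargc1a had mean changes below 0 in liver and above 0 in cortex, although Ppargc1a was called in neither tissue without the line as a replicate block, and Pcx fell in cortex with no called change in liver. Pdk4 and Ppargc1a have low read densities in liver, while the liver reads of Pcx followed the library total with a slope of 0.58, and the part of this in the difference was not tested.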

How the results depend on the processing

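The liver rise of Pck1 (0.12 to 0.16) and fall of Pdk4 (to -0.89 or lower) kept their calls under all 15 alternative settings and with each of the 39 pools left out. Fits with the line as a replicate block called Ppargc1a (-0.17, adjusted p = 0.0263), Tat (0.063, 0.0414), Sds (-0.064, 0.0460) and Got1 (0.064, 0.0358), all through the smaller error, and changed no other call of a member in liver. On recovered reads with voom and the block, chosen after seeing the data as were all fits with voom or the library total, G6pc (0.097), Tat (0.063), Sds (-0.064) and Got1 (0.064) were called. With the library total as covariate Sds (-0.075) was called and Tdo2 reversed (-0.0050), and with total and block Ppargc1a (-0.15), Tat (0.051), Sds (-0.073) and Got1 (0.056) were called and Tdo2 was at -0.0045. Quantile normalization turned Tdo2 (-0.0056) and cortex Got1 (-0.016). Entering all 43 pools called Got1 (0.090), cortex Ppargc1a (0.071) and the liver minus cortex difference of Got1 (0.064), which quantile normalization also called (0.065). The 33 BXD/RwwJ lines alone called Ppargc1a (-0.24), and leaving out BXD79, BXD85 and BXD101 G6pc (0.12). Leaving out each pool moved G6pc between 0.079 and 0.12 and Ppargc1a between -0.19 and -0.15.

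With the library total taken out, 2 members instead of 1 spread differently after SD, 1 instead of 7 carried their Ctr level over to SD, and Ppargc1a and Tdo2 turned to r = 0.71. The log2 ratio of line spread of G6pc turned to -0.14 without BXD79, BXD85 and BXD101. The cause of these shifts was not tested. Liver reads of the dense members limit what these data can show: reads of Tdo2, Pck1, Fbp1, Tat, G6pc and Sds rose with library size at slopes of 0.15 to 0.45, those of Pcx and Got1 at 0.58 and 0.68.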

Other observations

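The 4 BXD/TyJ lines (BXD05, BXD29, BXD29t and BXD32), kept out of the comparisons, gave liver values of their own. Pdk4 fell in all 4, by between -1.09 and -0.52 log2 units. Pck1 rose in all 4 (0.19 to 0.39), as did Got1 (0.16 to 0.60) and G6pc (0.044 to 0.43). Tat was higher after SD in 3 of 4, and Ppargc1a in 2 of 4 (-0.20 to 0.46). Sds, lower after SD on average in the 39 pools, was higher in 3 of these 4 lines (-0.10 to 0.24). Pcx was higher in all 4 (0.012 to 0.15), Tdo2 in 3 of 4 (-0.028 to 0.24) and Fbp1 in 2 of 4 (-0.029 to 0.16).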
